A study of Mus musculus with 8 samples.

Results

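The cadherin and protocadherin genes of the mouse were described here in the embryonic cerebellum with and without Pals1. Members were all gene symbols of the platform annotation that consist of Cdh and a number or that begin with Pcdh. This gave 78 of the 16593 symbols on the array, 19 cadherins and 59 protocadherins, and each gene is represented by its brightest probe over the 8 arrays. Of the 78, 62 had a mean above the lower quartile of all probes, a normalized log2 intensity of 6.26, and were tested. The other 16 were too dim to test.

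Cerebellar tissue was profiled on Illumina bead arrays at embryonic day 17.5, an array per animal, with 4 animals in each group. The WT animals were Pals1 fl/fl;Cre-, so they carried the floxed allele on both chromosomes without Cre. The CKO animals were Pals1 fl/fl;Cre+, with the same floxed allele and hGFAP-Cre, which deletes the gene in most neurons and glia of the cerebellum. The strain background is not given in the labels. The question behind the comparison is what the loss of Pals1, a scaffold of the apical Crumbs polarity complex, does to cerebellar progenitor cells. In such tissue arrays, fewer cells of a type and less RNA per cell cannot be told apart.

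Cadherins are calcium-dependent adhesion proteins of the cell surface. Classical cadherins bind the same or related cadherins on a neighbouring cell and hold the actin cytoskeleton through catenins at adherens junctions, next to which the Crumbs and Pals1 complex sits in polarized epithelia. Protocadherins lack the catenin-binding tail. The non-clustered ones steer axon growth and cell movement, and the clustered ones are used in varied combinations by single neurons, such as Purkinje cells, to tell their own branches from those of others. Transcripts of the alpha and gamma clusters join a variable exon of their own to exons that all members of the cluster share.

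The targeted gene was checked first. Mpp5, which encodes Pals1, had a level of 7.06 ± 0.035 (SD, n = 4) in WT against 6.20 ± 0.088 (SD, n = 4) in CKO. Its log2 level fell by 0.87 (adjusted p = 8.43e-06), and the groups did not overlap. The CKO mean lay under the level of 6.26 set for testing, and the fall depended on the processing, with -1.34 at an offset of 16 and -0.42 as the mean of all its probes. Array medians of raw intensity ranged from 118.7 to 133.5, and levels correlated across genes at 0.991 to 0.997 within groups and at 0.983 to 0.990 across them. Xist, transcribed from the inactive X chromosome, was at 6.83 in WT.3, at 9.71 to 10.10 on the other WT arrays and at 6.60 to 6.77 in CKO. Sex was thus uneven between the groups, and WT.3 was the sole WT array with Xist at the level of the CKO arrays. Over 12912 tested genes the fit called 1182 upward and 1115 downward in CKO, and when arrays were scaled by their medians instead 792 were higher and 1337 lower.

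Among the cadherins and protocadherins, 8 rose, 1 fell and 53 did not pass the test. The 8 became 5 with median scaling of the arrays or without CKO.1, 4 without WT.3 or without CKO.4, and 12 without CKO.3. The 1 became 0 with a normexp offset of 16, with the Xist level as a covariate, or when an array other than WT.3 and CKO.3 was dropped. The type II cadherins Cdh12 and Cdh8, the membrane-anchored Cdh13, the delta-2 protocadherins Pcdh10 and Pcdh17, and the clustered Pcdha6, Pcdha10 and Pcdhb3 rose, by 0.34 to 0.71 on the log2 scale. Pcdh20 fell by 0.34. Called members made up 14.5% of the 62 tested, beside 17.8% of all genes. Members higher in CKO were 12.9%, beside 9.15% of all genes, and members lower in CKO were 1.61%, beside 8.64%. The median change of the tested members was 0.07, against 0.0075 for all genes tested. The change was above 0 for 43 of 62 members and for 6742 of 12912 genes. Without the brightness filter the same 9 of 78 members were called and the median was 0.045. The groups did not overlap for 8 tested members, all 8 higher in CKO, or 12.9%, beside 21.2% of all genes. A share of calls near that of all genes is not a result about these families.

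**Figure D1:**
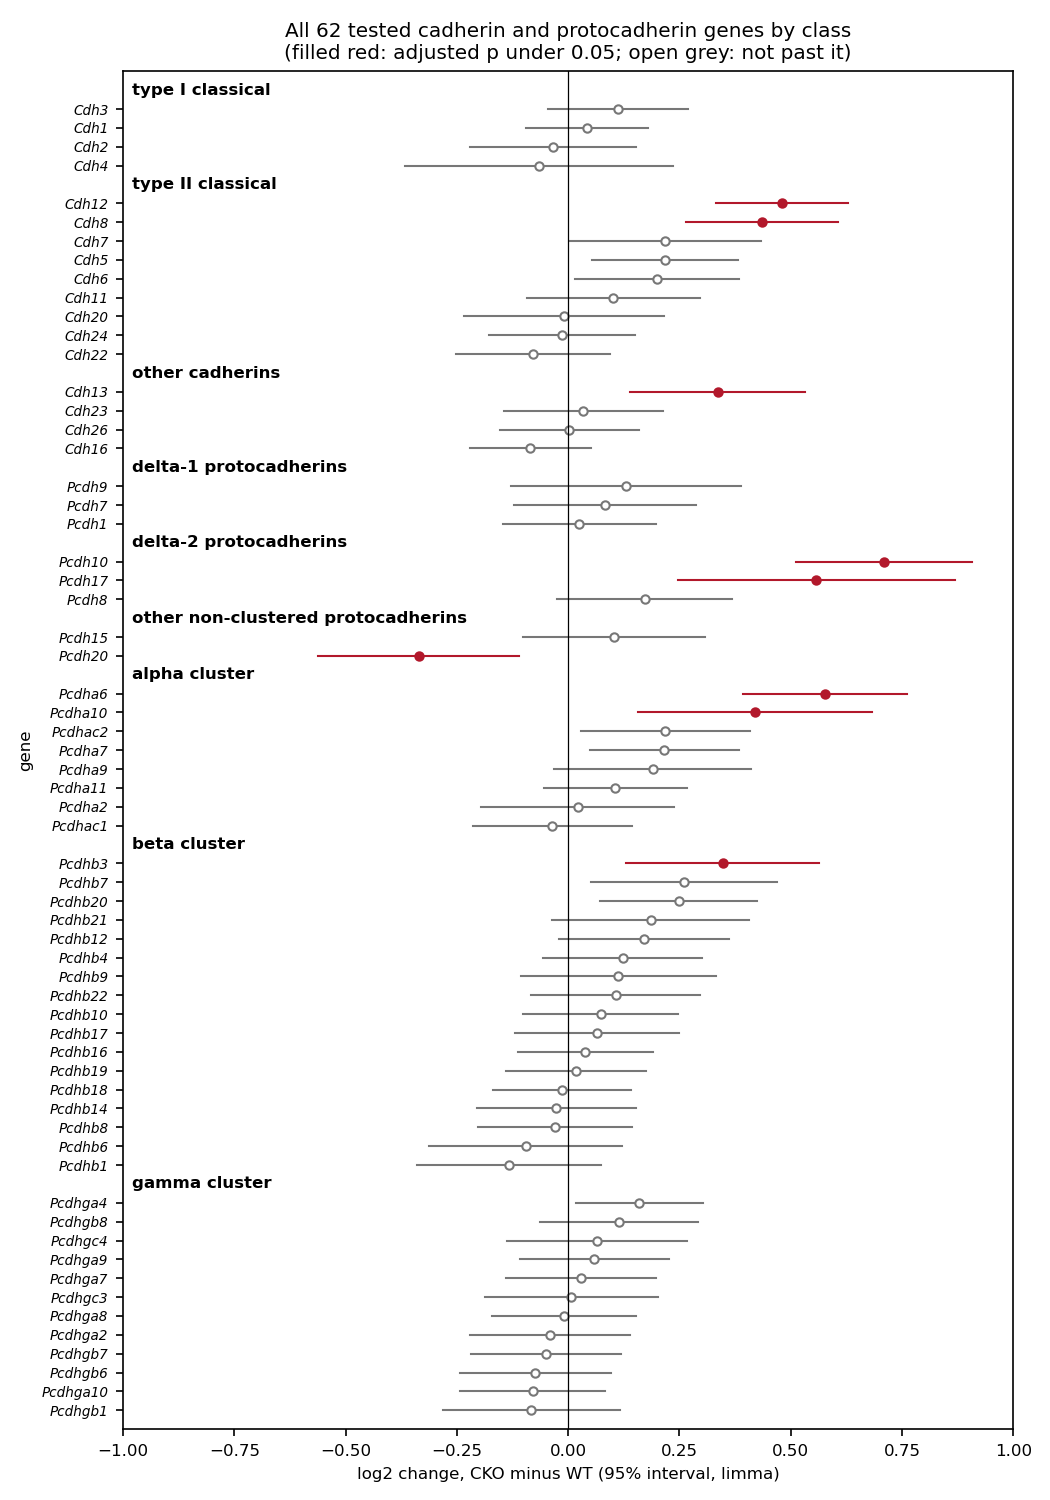
Log2 change (CKO minus WT, horizontal axis) of the 62 tested genes, grouped by class, with the 95% interval of the limma fit. The 9 filled red points passed the adjusted threshold and 8 of them lie to the right of 0, while every gene of the type I, delta-1 and gamma groups is open and no farther than 0.16 from 0.

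Calls were made only among brighter members. Of the 29 tested members with a mean above the median of all probes, 6.84, 9 were called, or 31.0%, beside 24.3% of all genes in that range. Of the 33 below it 0 were called by limma, beside 2.99% of all genes there. An unadjusted p under 0.05 was found for 3 of the 33, beside 382 of the 3947 genes in that range. Of the 37 tested clustered protocadherins 24 lay in that dim range, where an array leaves little room to see a change.

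Type I classical cadherins form the strong junctions of epithelia and neural progenitors. All 4 on the array were tested and limma called 0 of them, beside 17.8% of all genes. At an unadjusted p under 0.05 there were also 0. Cdh2, N-cadherin, the main cadherin of neural progenitor junctions, read 8.82, 8.90, 8.80 and 9.06 in WT and 9.05, 8.88, 8.73 and 8.78 in CKO. The groups overlapped in part, with CKO.3 and CKO.4 below all WT arrays and WT.4 above all CKO arrays, and the difference was -0.03 (95% interval -0.22 to 0.15, adjusted p = 0.846). Its other 3 probes differed by -0.14 to -0.01 and none passed. Cdh4, R-cadherin, averaged 8.13 ± 0.19 in WT (SD, n = 4) and 8.06 ± 0.32 in CKO (SD, n = 4), where CKO.3 and CKO.4 read 7.78 and 7.80 and the other arrays 8.33 and 8.35. Cdh1, E-cadherin, and Cdh3, P-cadherin, differed by 0.04 and 0.11. Both lay below the median of all probes, where limma called 2.99% of all genes.

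Type II cadherins label subdivisions of the brain, and several are known from domains of Purkinje cells and cerebellar nuclei. Of 9 tested members 2 rose and 0 fell, or 22.2% called, beside 17.8% of all genes. An unadjusted p under 0.05 was found for 5 of the 9, beside 3871 of all 12912 genes, and their median change was 0.20. Counts in a class this small are not a result about the class. Cdh12, a type II cadherin of the brain, read 7.35, 7.36, 7.18 and 7.29 in WT and 7.81, 7.81, 7.69 and 7.79 in CKO. Each CKO array lay above each WT array, and Cdh12 rose by 0.48 (SE 0.07, 1.40-fold, adjusted p = 5.15e-04). An exact two-sided permutation test gave p = 0.0286, the smallest that the 70 assignments of the arrays allow. Cdh8, a type II cadherin that marks subsets of neurons, read 9.01, 9.01, 8.80 and 9.01 in WT and 9.47, 9.45, 9.23 and 9.43 in CKO. WT.3 was the lowest WT array and CKO.3 the lowest CKO array, yet the groups did not overlap. Cdh8 rose by 0.43 (SE 0.08, 1.35-fold, adjusted p = 0.00226, exact permutation p = 0.0286). Its 2 other tested probes, ILMN_3163448 and ILMN_2765569, differed by 0.35 (adjusted p = 0.0196 over all probes) and 0.30 (adjusted p = 0.0612). Its remaining probe was too dim to test, and as the mean of its 4 probes the change was 0.26 (adjusted p = 0.0140).

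The other type II members stayed short of the threshold. Cdh5, VE-cadherin, the cadherin of endothelial junctions, read 6.47, 6.31, 6.45 and 6.24 in WT and 6.49, 6.55, 6.70 and 6.59 in CKO. The groups did not overlap and the difference was 0.22 (95% interval 0.05 to 0.38, adjusted p = 0.0672), at a dim probe. Of 14 endothelial and pericyte markers 4 rose and 0 fell (Emcn, Kcnj8, Pecam1 and Vtn), beside 9.15% and 8.64% of all genes. The mean level of these markers was 7.71 to 7.79 in WT and 7.81 to 8.10 in CKO. CKO.3 had the top value, as for Cdh5. Their part in the Cdh5 value was not tested. Cdh6, found in early neural tube and cerebellar domains, differed by 0.20 (adjusted p = 0.131), with CKO.3 at 7.38 inside the WT range of 7.32 to 7.48 and the other CKO arrays at 7.66 to 7.74. Cdh7 differed by 0.22 (adjusted p = 0.158), where CKO.3 and CKO.4 read 8.94 and 8.96 and the other 2 CKO arrays 8.56 and 8.67, inside the WT range of 8.47 to 8.73. Cdh11, a cadherin of mesenchyme and neurons, differed by 0.10 (adjusted p = 0.510) at its brightest probe, while another probe of similar level, ILMN_1240529, changed by 0.21 (adjusted p = 0.0458 over all probes). Cdh20, Cdh22 and Cdh24 differed by -0.08 to -0.01, and Cdh19 was not tested.

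Outside the classical types, Cdh13, or T-cadherin, has no cytoplasmic tail and is held in the membrane by a lipid anchor. It read 9.08, 8.88, 9.04 and 9.20 in WT and 9.44, 9.37, 9.18 and 9.55 in CKO. WT.4 lay just above CKO.3, and the other CKO arrays lay above all WT arrays. Cdh13 rose by 0.34 (SE 0.09, 1.26-fold, adjusted p = 0.0217, exact permutation p = 0.0571), and its second probe, ILMN_2659503, rose by 0.45 (adjusted p = 0.00880 over all probes). Cdh13 lost its call without CKO.1, CKO.4, WT.2 or WT.3 (adjusted p of 0.0506 to 0.0754 there, and of 0.00509 to 0.216 across all alternatives). Cdh23, the tip-link cadherin of hair cells, Cdh26 and the kidney cadherin Cdh16 differed by -0.09 to 0.03, and Cdh17 was not tested.

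**Figure D2:**
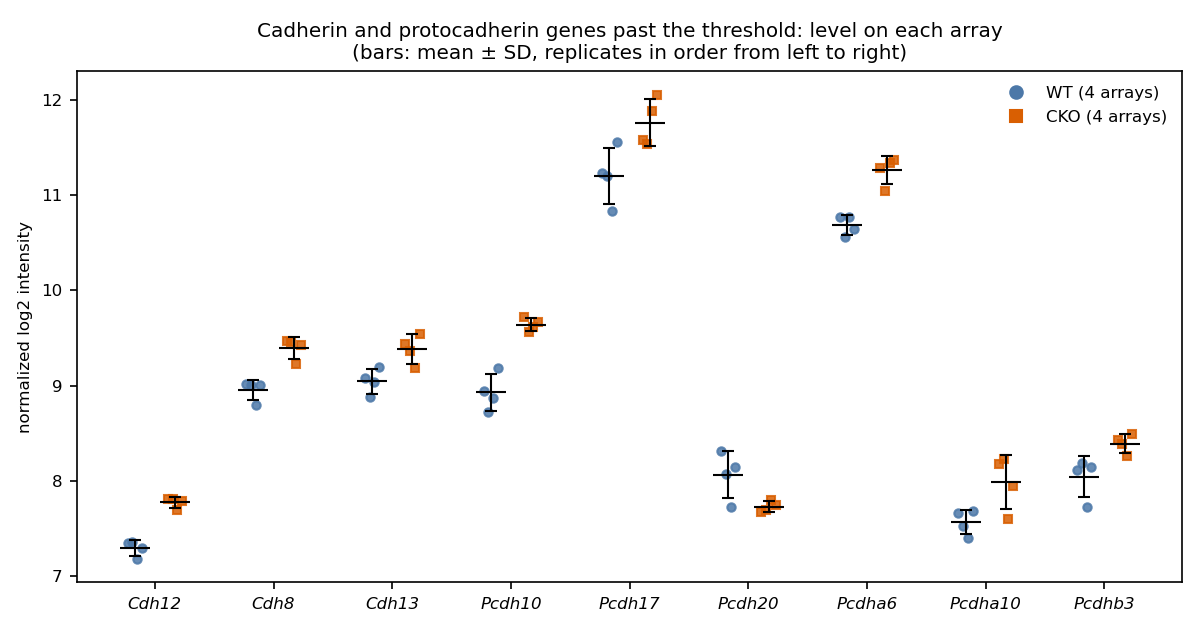
Normalized log2 intensity (vertical axis) on each array for the 9 genes past the threshold, WT as circles and CKO as squares, with the mean and SD of 4 arrays. The groups do not overlap for Cdh12, Cdh8, Pcdh10, Pcdha6 and Pcdhb3, and they share part of their range for Cdh13, Pcdh17, Pcdh20 and Pcdha10.

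Non-clustered protocadherins were represented by 9 genes, of which 8 were tested. Of these 2 rose and 1 fell, or 37.5% called, beside 17.8% of all genes. Pcdh10, or OL-protocadherin, guides axons and marks stripes of Purkinje cells in mouse cerebellum. It read 8.95, 8.73, 8.87 and 9.19 in WT and 9.72, 9.56, 9.62 and 9.67 in CKO. Every CKO array exceeded the highest WT array, WT.4, and Pcdh10 rose by 0.71 (SE 0.09, 1.64-fold, adjusted p = 2.93e-04, exact permutation p = 0.0286), the largest change among the members. Its other probes rose as well, ILMN_2663752 by 0.72 (adjusted p = 7.88e-04 over all probes) and ILMN_2727239 by 0.50 (adjusted p = 0.00175). Pcdh17, a protocadherin of axons and synapses, read 11.23, 11.20, 10.83 and 11.55 in WT and 11.58, 11.53, 11.88 and 12.05 in CKO. WT.4 lay just above CKO.2, so the groups overlapped by a single pair of arrays. Pcdh17 rose by 0.56 (SE 0.14, 1.47-fold, adjusted p = 0.0172, exact permutation p = 0.0571). It lost its call without WT.3 (adjusted p = 0.0506) or CKO.4 (adjusted p = 0.0562, or 0.00626 to 0.0719 across all alternatives).

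Pcdh8, the activity-regulated arcadlin, differed by 0.17 (adjusted p = 0.232), and the delta-1 members Pcdh9, Pcdh7 and Pcdh1 by 0.13, 0.08 and 0.02. Pcdh9 read 7.80 and 7.88 in CKO.3 and CKO.4 and 8.25 and 8.26 in the other CKO arrays, so its spread within CKO exceeded the difference between the groups. Pcdh15, the partner of Cdh23 in the tip link, differed by 0.10, and Pcdh18 was not tested.

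Pcdh20, a neuronal protocadherin, went the other way. It read 8.31, 8.07, 7.73 and 8.15 in WT and 7.68, 7.70, 7.80 and 7.75 in CKO. WT.3 lay among the CKO arrays and the other 3 WT arrays above them. Pcdh20 fell by 0.34 (SE 0.10, adjusted p = 0.0407, exact permutation p = 0.0857). The call was lost when any single array other than WT.3 and CKO.3 was left out (adjusted p of 0.0786 to 0.118 there, and of 0.00233 to 0.927 across all alternatives). With the Xist level as a covariate the change was 0.024 (adjusted p = 0.927).

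The promoters of 4 of these genes are shown because Cdh12, Cdh8 and Pcdh10 kept their call in all 21 alternatives and Pcdh20 was the sole fall. Each run gives the 250 bases before the start of the gene, 5′ to 3′ on the strand of the gene, from RefSeq on GRCm38.p6. Capitals mark CANNTG, the E-box bound by basic helix-loop-helix and zinc-finger E-box factors, which reads the same way on both strands.
Cdh12 (chr15:21111202-21111451, plus strand): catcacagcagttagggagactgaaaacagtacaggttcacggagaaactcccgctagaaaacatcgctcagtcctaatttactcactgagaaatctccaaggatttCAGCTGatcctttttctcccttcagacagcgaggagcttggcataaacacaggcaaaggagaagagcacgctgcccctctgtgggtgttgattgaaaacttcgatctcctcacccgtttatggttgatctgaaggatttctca
Cdh8 (chr8:99416472-99416721, minus strand): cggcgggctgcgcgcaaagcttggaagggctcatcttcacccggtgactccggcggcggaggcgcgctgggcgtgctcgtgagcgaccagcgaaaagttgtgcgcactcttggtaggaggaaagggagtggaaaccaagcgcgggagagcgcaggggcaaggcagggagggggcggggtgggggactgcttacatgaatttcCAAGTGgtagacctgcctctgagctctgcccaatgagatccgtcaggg
Pcdh10 (chr3:45378148-45378397, plus strand): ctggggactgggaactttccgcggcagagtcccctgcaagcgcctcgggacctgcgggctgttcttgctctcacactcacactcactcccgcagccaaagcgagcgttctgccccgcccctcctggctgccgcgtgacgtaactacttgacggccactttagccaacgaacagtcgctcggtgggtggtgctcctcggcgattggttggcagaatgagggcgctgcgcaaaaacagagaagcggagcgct
Pcdh20 (chr14:88471397-88471646, minus strand): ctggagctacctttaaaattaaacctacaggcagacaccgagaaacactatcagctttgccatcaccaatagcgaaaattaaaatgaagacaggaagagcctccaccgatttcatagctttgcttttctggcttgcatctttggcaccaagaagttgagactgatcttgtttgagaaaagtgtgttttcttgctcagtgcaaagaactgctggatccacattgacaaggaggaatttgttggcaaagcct
Cdh12 and Cdh8 hold 1 E-box each, and Pcdh10 and Pcdh20 hold 0 in this window, as does Pcdh17, the other called member whose promoter was read. No promoter of Cdh13, Pcdha6, Pcdha10 or Pcdhb3 was read on its own. At least 1 E-box is in 45% of the 20 member promoters, beside 66.2% of all 32851 promoters of this length. The narrower motif CACCTG, searched on both strands and itself an E-box, is the core bound by Zeb1 and Zeb2. It is in none of the 4 windows, in 3 of the 20 member promoters (17 genes) and in 17.2% of all promoters. Guanine and cytosine made up 64.4% of the Cdh8 window, 63.2% for Pcdh10, 46.8% for Cdh12 and 42.4% for Pcdh20, with a median of 52.4% over all promoters.

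Clustered protocadherins give neurons their surface identity. Of 50 on the array 37 were tested, and 3 rose and 0 fell by limma, or 8.11% called, beside 17.8% of all genes. An unadjusted p under 0.05 was found for 8, beside 3871 of all 12912 genes. In the alpha cluster all 8 members were tested, with 2 higher and a median change of 0.20. The called share was 25%, beside 17.8% of all genes. The Pcdha6 probe ILMN_3076948 read 10.77, 10.56, 10.77 and 10.64 in WT and 11.29, 11.05, 11.34 and 11.37 in CKO. The groups did not overlap, and Pcdha6 rose by 0.58 (SE 0.09, 1.49-fold, adjusted p = 6.47e-04, exact permutation p = 0.0286). It lost its call with the Xist covariate alone (adjusted p = 0.0603, the highest across all alternatives, with 9.38e-05 the lowest). Its second probe, ILMN_3155884, was dimmer and differed by 0.29 (adjusted p = 0.0968 over all probes). Since alpha transcripts share their last exons, a probe there would read several isoforms. The positions of the probes are not given in the sources used here, so the value cannot be assigned to Pcdha6 alone.

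Pcdha10, another alpha isoform, read 7.66, 7.53, 7.40 and 7.68 in WT and 8.18, 8.23, 7.61 and 7.95 in CKO. CKO.3 fell inside the WT range and the other CKO arrays lay above it. Pcdha10 rose by 0.42 (SE 0.12, 1.34-fold, adjusted p = 0.0296, exact permutation p = 0.0857), and lost its call when WT.2, WT.3 or any CKO array but CKO.3 was left out (adjusted p of 0.0570 to 0.0888 there, and of 0.00110 to 0.104 across all alternatives). Of the alpha members not called, Pcdha7 differed by 0.22 (adjusted p = 0.0734) with groups that did not overlap, 6.51 to 6.79 in WT and 6.80 to 6.98 in CKO. Pcdhac2, a C-type isoform, differed by 0.22 (adjusted p = 0.109). Pcdha9, Pcdha11, Pcdha2 and Pcdhac1 differed by -0.04 to 0.19.

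The beta genes are single exons with no shared part. Of 17 tested of 22 on the array 1 rose and 0 fell, or 5.88% called, beside 17.8% of all genes. An unadjusted p under 0.05 was found for 3, beside 3871 of all 12912 genes, and the median change was 0.07. Pcdhb3 read 8.11, 8.19, 7.72 and 8.15 in WT and 8.43, 8.39, 8.26 and 8.49 in CKO. The groups did not overlap, with WT.3 far below the other WT arrays. Pcdhb3 rose by 0.35 (SE 0.10, 1.27-fold, adjusted p = 0.0295, exact permutation p = 0.0286), and lost its call when WT.3 or any CKO array but CKO.3 was left out (adjusted p of 0.0527 to 0.0845 there, and of 0.0108 to 0.0845 across all alternatives). Pcdhb20 differed by 0.25 (adjusted p = 0.0526) and Pcdhb7 by 0.26 (adjusted p = 0.0843). Without CKO.3 both were called, together with Cdh6 and Pcdhac2. Pcdhb22 differed by 0.11, and the 13 other tested beta genes by -0.13 to 0.19. Beta genes are close copies of each other, so a probe may read more than its own gene, which was not tested.

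Gamma genes keep interneurons and other neurons alive during development. Limma called 0 of 12 tested, beside 17.8% of all genes, with a median change of -0.0016. All 12 lay below the median of all probes, where limma called 2.99% of all genes. At an unadjusted p under 0.05 there was 1 gene, beside 3871 of all 12912 genes and 382 of the 3947 genes in that dim range. That gene, Pcdhga4, read 6.61 to 6.80 in WT and 6.86 to 6.90 in CKO, without overlap, and differed by 0.16 (adjusted p = 0.120). Pcdhgc3 and Pcdhgc4, both C-type isoforms, differed by 0.01 and 0.06, and the other 9 by -0.08 to 0.11. Of the 20 gamma genes 8 were too dim to test, as were 5 beta genes. The 16 untested members had group means of 5.88 to 6.34. Among them Pcdhga5 was the sole gene whose groups did not overlap, at 6.03 to 6.11 in WT and 5.76 to 6.01 in CKO.

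**Figure D3:**
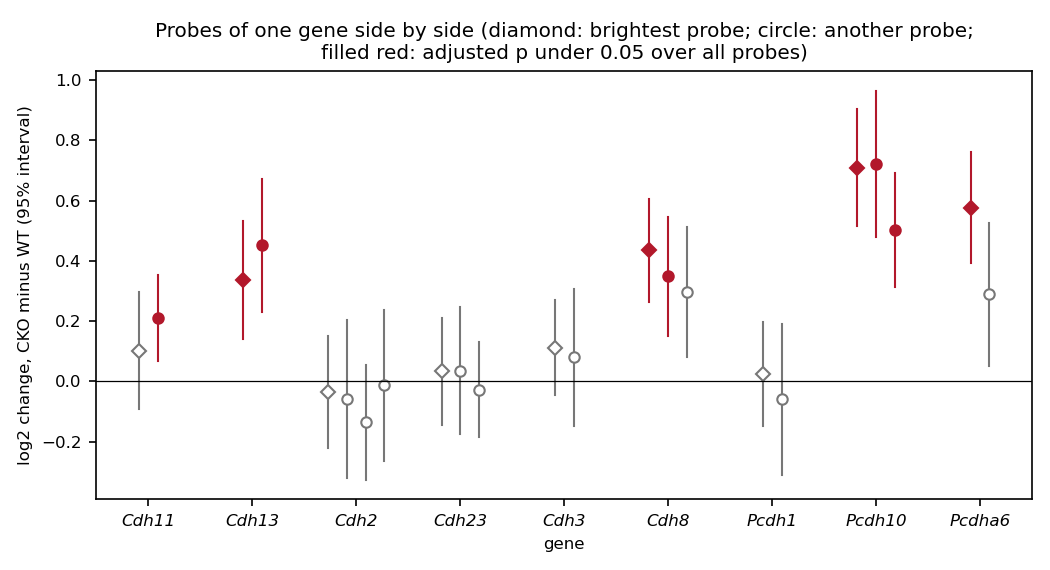
Log2 change with its 95% interval for each tested probe of the 9 genes that had more than 1 tested probe, diamonds for the brightest probe and circles for the others. All 3 Pcdh10 probes and both Cdh13 probes are filled, while Cdh11, Cdh8 and Pcdha6 have filled and open probes side by side.

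Several members had more than 1 probe, which gives a reading of the same RNA by another sequence. Of 12 such genes with 34 probes, 26 probes were tested. Probes differed in sign for Cdh23 (0.04, 0.03 and -0.03) and Pcdh1 (0.02 and -0.06), with intervals that included 0.

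The Xist level was used as a covariate because of the uneven sex of the groups. Cdh12, Cdh8, Pcdh10, Pcdh17 and Pcdhb3 kept their call. Cdh13 (0.34, adjusted p = 0.216), Pcdha10 (0.59, adjusted p = 0.104) and Pcdha6 (0.49, adjusted p = 0.0603) lost it, as did Pcdh20. The changes of Cdh12, Cdh8, Pcdh17 and Pcdhb3 were larger in that fit, 0.61, 0.60, 0.93 and 0.68. The fit leans on WT.3, which read lowest of the WT arrays for each of these genes. Pcdh10 changed by 0.75 there, and its lowest WT array was WT.2.

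**Figure D4:**
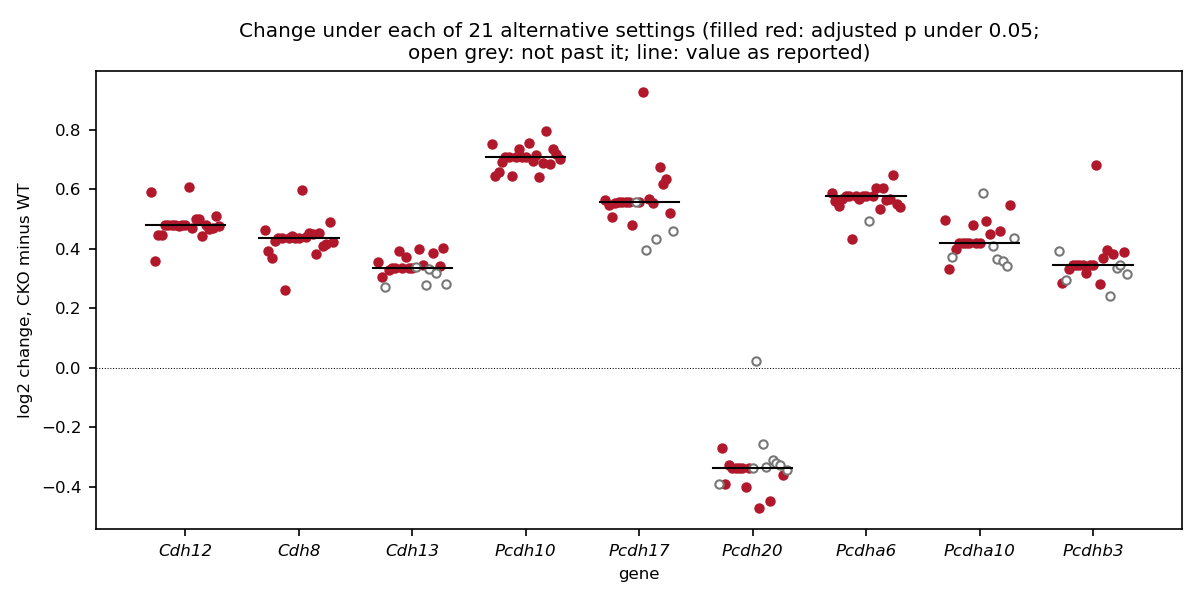
Log2 change (vertical axis) of the 9 called genes under each of 21 alternative settings, filled where the adjusted p stayed under 0.05, with a line at the reported value. Cdh12, Cdh8 and Pcdh10 are filled throughout, and Pcdh20 has 9 open points, 1 of them above 0.

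Genes that bind, cleave or regulate cadherins and protocadherins were read from 7 lists with 108 symbols, 88 on the array and 76 tested. Of these 7 rose, or 9.21%, beside 9.15% of all genes, and 11 fell, or 14.5%, beside 8.64%. A fit with the Xist covariate called 2 of them upward and 2 downward. Among catenins and related proteins, which tie cadherins to actin, 2 of 11 rose and 2 fell. Ctnna1, the alpha-catenin of epithelia and progenitors, fell by 0.49 (SE 0.08, adjusted p = 0.00132), while Ctnna2, the neuronal alpha-catenin, rose by 0.32 (SE 0.08, adjusted p = 0.0137). Ctnna1 averaged 11.45 ± 0.070 in WT (SD, n = 4) and 10.95 ± 0.15 in CKO (SD, n = 4), and the groups of both genes did not overlap. Ctnnd2, the neural delta-catenin, rose by 0.25 (adjusted p = 0.0190) and Ctnnal1, an alpha-catenin-like protein, fell by 0.44 (adjusted p = 0.00857). Ctnnb1, beta-catenin, differed by -0.02 (adjusted p = 0.905).

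Of 18 tested atypical and desmosomal cadherins 3 rose and 0 fell. Fat4, a giant cadherin of planar polarity and Hippo signalling, rose by 0.40 (adjusted p = 0.00370) and Clstn3, the synaptic calsyntenin, by 0.36 (adjusted p = 0.00653). Fat2, a giant cadherin of granule cells, rose by 0.24 (adjusted p = 0.0390) at a dim probe, from 6.51 in WT to 6.75 in CKO. Of 6 nectin genes Nectin3, an adhesion protein of adherens junctions, rose by 0.26 (adjusted p = 0.0149) and 0 fell. Of 6 transcription repressors of cadherins 0 rose and 2 fell, Zeb2 by 0.68 (SE 0.09, adjusted p = 2.64e-04) and Zeb1 by 0.57 (SE 0.11, adjusted p = 0.00299). Both repress Cdh1 in epithelial cells, and Cdh1 itself differed by 0.04 (95% interval -0.10 to 0.18) at a dim probe. Of 11 genes of cadherin cleavage and turnover the metalloprotease Adam15 rose by 0.33 (adjusted p = 0.0138) and Psenen, a subunit of gamma-secretase, fell by 0.33 (adjusted p = 0.0263).

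Of 11 effectors of protocadherins, mostly of the WAVE actin complex, limma called 0, beside 17.8% of all genes. An unadjusted p under 0.05 was found for 2, beside 3871 of all 12912 genes. Of 13 regulators of the protocadherin clusters 0 rose and 6 fell, beside 9.15% of all genes higher and 8.64% lower. All but Rad21 lay above the median of all probes, where 12.6% of all genes were higher and 11.7% lower. The median difference of the 13 was -0.26. Smc1a, a cohesin subunit, fell by 0.41 (adjusted p = 0.00152), the cohesin subunit Stag2 by 0.32 (adjusted p = 0.0181) and the cohesin loader Nipbl by 0.39 (adjusted p = 0.00292). Dnmt3b, a DNA methyltransferase, fell by 0.43 (adjusted p = 0.0327), the methyltransferase Dnmt1 by 0.29 (adjusted p = 0.0271) and the corepressor Trim28 by 0.29 (adjusted p = 0.00763). Ctcf, which sets promoter choice in the clusters, differed by -0.11 (adjusted p = 0.531).

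**Figure D5:**
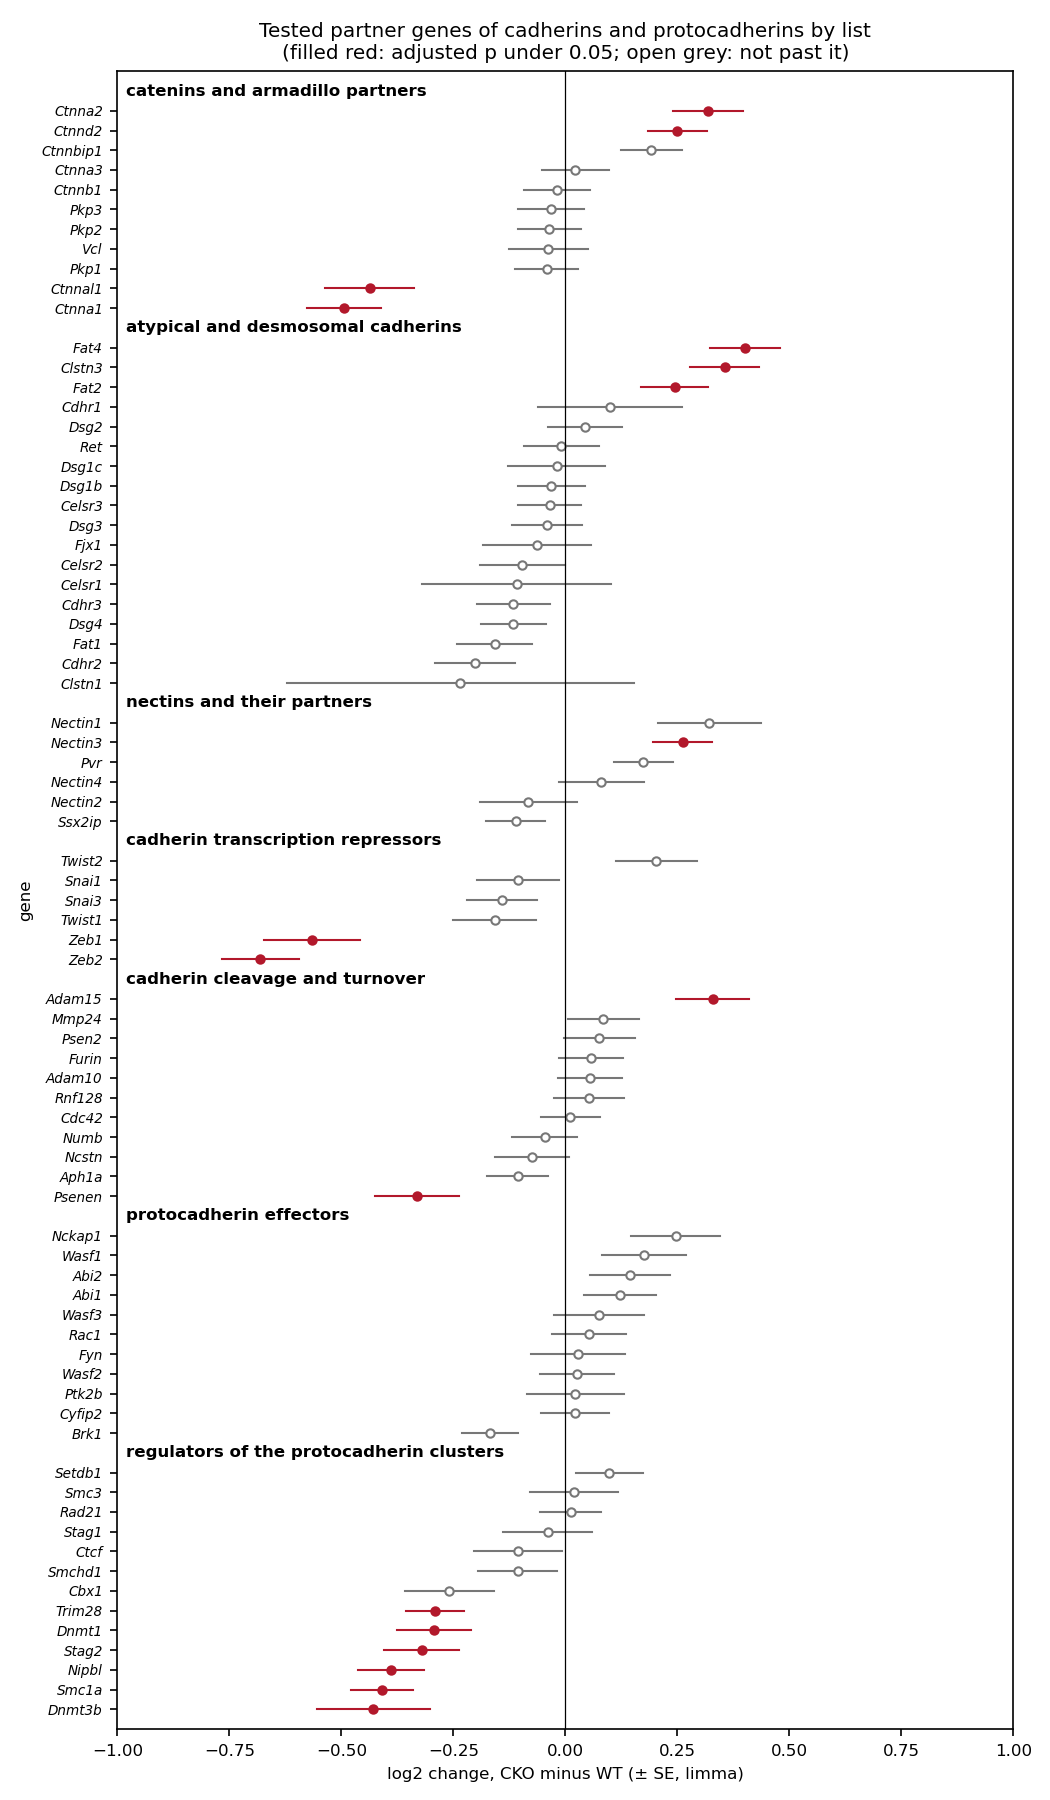
Log2 change (CKO minus WT, horizontal axis) with its standard error for the 76 tested partner genes, grouped by list, filled red where the adjusted p was under 0.05. Zeb1, Zeb2 and the 6 filled cluster regulators lie to the left of 0, and Ctnna1 and Ctnna2 lie on opposite sides.

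Several lists of cell type markers also differed between the groups, beside 9.15% of all genes higher and 8.64% lower. Granule cell progenitor markers fell in 8 of 9 tested genes, with a mean log2 level of 10.20 to 10.41 in WT and 9.23 to 9.64 in CKO, and their defining genes Atoh1 and Pax6 were too dim to test. Markers of postmitotic granule neurons fell in 6 of 8 (9.15 to 9.26 in WT, 8.65 to 8.80 in CKO). Purkinje cell markers rose in 5 of 8 (10.44 to 10.62 in WT, 10.97 to 11.10 in CKO), with Calb1 and Pcp4 too dim to test. Microglial markers rose in 9 of 10 (7.23 to 7.39 in WT, 7.67 to 8.07 in CKO). The part of these shifts in the changes of Pcdh10, Cdh8, the other called members and the partner genes was not tested.

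Meningeal markers had a mean level of 7.87 in CKO.3, against 6.65 for the lowest CKO array and 6.42 to 6.78 in WT, and 1 of 12 rose. Of 11 astroglial markers 2 fell and 0 rose, and of 7 oligodendrocyte markers 1 fell and 0 rose. Of 5 interneuron markers 1 rose and 2 fell, of 8 choroid plexus markers 2 fell and 0 rose, and of 4 erythrocyte genes limma called 0. Shares over all genes were 9.15% higher and 8.64% lower. The choroid plexus markers that fell were Otx2 and Ttr, the other 6 did not pass, and the median change of the 8 was 0.07. Otx2 averaged 10.68 in WT, far above Ttr, the next brightest of the list, at 8.39. Which cells the Otx2 signal came from was not tested. The number of arrays, 4 a group, limits the precision: standard errors of the tested members lay between 0.06 and 0.14 on the log2 scale.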

How the data were processed

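Arrays of cerebellar RNA from 8 animals, 4 WT and 4 CKO by title and genotype, were used, each animal a replicate. The deposited intensity table was exported from BeadStudio, per the labels. Its version and background handling are not given in the sources used here. For comparison, the deposited log2 table is quantile-normalized by the authors, judging from its values, which lie within 0.014 of log2 of the quantile-normalized intensity. It served as an alternative.

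Intensities were corrected with normexp (offset 50), quantile-normalized and taken to log2. An offset of 50 pulls changes of dim genes towards 0. Of 25697 probes 23978 had 1 symbol, 0 had several and 1719 had none. Genes were tested where the brightest probe exceeded the lower quartile of all probes, with limma 3.58.1 in R 4.3.3 (lmFit, eBayes, genotype as sole term, two-sided) and Benjamini-Hochberg adjustment over 12912 genes at 0.05. Exact permutation tests over 70 assignments were run for the 9 called members. Single probes were tested in a fit over 18097 probes. The fit was tested on simulated data. Symbols and probe identifiers are those of the platform annotation.

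Members, gene lists, tests, alternatives and naming rule were chosen with earlier results of these data known. Named were called members, the brightest of each class, members with an unadjusted p under 0.05, groups without overlap or discordant probes, and called partner genes. Alternatives covered background, normalization, filter, probe rule, weights per array, moderation of the variance, a replicate block, left-out arrays and the Xist level. Python 3.11.15 with matplotlib 3.10.9 drew the figures.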

Additional observations from a re-analysis of the deposited data

Results flagged for a closer look

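Levels that stood apart from the other 3 arrays of their group were looked for in the tested members and Mpp5, 126 groups in all. There were 8, and chance flags about 1 in 20 groups, or 6.3 here. In WT.3, Cdh8 was at 8.80 against 9.01 on each of the other WT arrays, Pcdhb3 at 7.72 against 8.11 to 8.19, and Pcdhga7 at 6.57 against 6.77 to 6.81. In WT.2, Pcdhac2 was at 7.52 against 7.24 to 7.25 and Pcdha9 at 6.43 against 6.10 to 6.14. In CKO.4, Pcdh7 was at 6.98 against 6.60 to 6.65. In CKO.2, Pcdhb8 was at 6.85 against 7.12 to 7.14. In CKO.1, Pcdhga10 was at 6.70 against 6.56 to 6.58. Of these genes Cdh8 and Pcdhb3 were called. Without WT.3 Cdh8 kept its call and Pcdhb3 differed by 0.24 (limma adjusted p = 0.0527, or 0.0108 to 0.0845 across all alternatives).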

How the results depend on the processing

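For the 9 called members, 21 alternatives gave 189 changes, of which 156 kept direction and call, 32 kept direction without the call and 1 reversed, Pcdh20 at 0.024 with the Xist covariate. The count of members higher in CKO was 8, 5 with median scaling, and 4 to 12 when single arrays were left out: 4 without WT.3, 5 without CKO.1, 4 without CKO.4 and 12 without CKO.3. The count of members lower was 1, and 0 with an offset of 16, with the Xist covariate and with the replicate block, or 0 to 1 with an array left out (0 without WT.1, WT.2, WT.4, CKO.1, CKO.2 and CKO.4). Members without overlap numbered 8, 5 with the filter at the median probe, where fewer genes are tested, 18 without both WT.3 and CKO.3, and 8 to 16 with an array left out, where fewer arrays make overlap less likely (14 without WT.4, 16 without CKO.3). The Xist covariate gave 363 higher and 430 lower over all genes, and 782 (without CKO.4) to 1299 higher and 792 to 1265 lower with an array left out. For partner genes the Xist covariate gave 2 higher and 2 lower, and 5 to 7 higher and 7 (without WT.2) to 12 lower with an array left out. Where no reason is given, the cause was not tested. Mpp5 changed by -1.34 to -0.42 over its 20 alternatives and kept its call.

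The same replicate numbers appear in both groups, but nothing in the labels pairs the animals. Deviations of same-numbered arrays from their group means correlated at -0.05 to 0.15, and 2 of 8 arrays correlated best with their own number. The highest value was that of WT.3 and CKO.3. Hbb-b2, alone of the erythrocyte genes, read 9.72 and 10.06 on these arrays and 6.42 to 6.77 on the others. Celsr1 read 6.34 and 6.49 there and 7.03 to 7.46 on the others. Whether these animals share an origin was not tested. With a replicate block 9 members were higher and 0 lower, and over all genes 1090 were higher and 1057 lower. Dim probes limit what can be seen of the clustered protocadherins, and no detection p-values or chip names were used here.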
